A study of Mus musculus with 32 samples.

Results

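The comparison described here set 8 kidneys of NZB/W mice in early remission against 7 kidneys of NZB/W mice 30 weeks old. These 15 kidneys were taken by their sample titles from 32 kidneys measured on Affymetrix arrays, and whole-kidney RNA of each kidney was hybridized to its own array. All 15 kidneys came from NZB/W mice, the F1 hybrids of New Zealand Black and New Zealand White mice, which develop lupus nephritis with age without any engineered allele. For the 30-week mice the labels name no treatment and call the mice non-proteinuric, and they name no sex for either group. The early-remission mice had received triple therapy, which joined cyclophosphamide (CTX) to CTLA4Ig and an antibody against CD154 (anti-CD154). The labels give an age for the 30-week mice alone, so age and treatment cannot be told apart in this comparison. Both groups carry the lupus-prone genotype, and neither is a healthy strain. No untreated proteinuric group entered the comparison. The labels name the tissue as whole kidney. Over the 15 kidneys, the median log2 level was 11.3 for 27 proximal tubule transporters, 10.1 for 25 genes of the loop of Henle and distal tubule, 8.73 for 26 collecting duct genes and 8.31 for 20 podocyte genes, where the highest decile of all genes began at 9.84.

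NZB/W mice make autoantibodies against nuclear antigens, immune complexes lodge in the glomeruli, and myeloid cells and lymphocytes then enter the kidney. Cyclophosphamide kills dividing lymphocytes, CTLA4Ig blocks the CD28 signal that T cells need, and anti-CD154 blocks the signal that T cells give to B cells through CD40. Tubule cells, which make up most of the kidney, run on mitochondrial respiration and lose transporters and metabolic enzymes when they are injured, while interferons, secreted in lupus, switch on a large set of antiviral genes in most cell types.

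The values were log2 expression values made by the authors with RMA, 1 probe set per gene, on arrays that were normalized and batch-corrected together in batches that are not named. Of 16539 probe sets, 15780 carried a gene name and were tested. A difference below is the mean log2 value in early remission minus the mean at 30 weeks, given with its standard error, so that a difference of 1 is a doubling. Array medians ran from 7.06 to 7.10 at 30 weeks and from 7.02 to 7.08 in early remission (exact permutation p = 0.296, and 0.540 after adjustment over 4 measures of array quality), and the 3′ to 5′ ratio of actin probes gave an exact permutation p of 0.405. For Gapdh probes this ratio gave an exact permutation p of 0.756. The mean of the spike-in controls was 0.22 higher in early remission (exact permutation p = 0.277, and 0.540 after the same adjustment). Of 45 such controls, 7 were lower in early remission and 0 had groups apart, with a median difference of 0.20. The bearing of this shift on the gene differences was not tested. The number of arrays limits the precision. Kidneys of 1 group were not alike in every case. The 30-week kidney of replicate 2 had 254 genes more than 2-fold above the mean of the other 30-week kidneys and 54 more than 2-fold below it. In early remission, replicate 2 had 109 and 79 such genes and replicate 8 had 33 and 47, while the other 12 kidneys had at most 37 and 35. The sample names of 30-week replicate 6 and early-remission replicate 1 end in the same mouse code, and whether these kidneys came from the same mouse is not stated. Sample names held the letters BG in all 30-week kidneys and in early-remission replicates 1, 5, 6 and 7, but not in the other 4 early-remission kidneys. What these letters stand for is not stated.

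No gene differed between early remission and 30 weeks once the tests were adjusted over all genes (0 of 15780, 0.0%, limma with Benjamini-Hochberg adjustment at 0.05, lowest adjusted p = 0.127). An exact permutation test over the 6435 ways to split the 15 kidneys also called 0 genes, with 935 higher and 502 lower genes at an unadjusted p under 0.05 and a lowest adjusted p of 0.194, and so did an exact rank sum test. Before adjustment, 855 genes were higher in early remission (5.42%) and 531 were lower (3.37%) at a limma p under 0.05. With the arrays quantile-normalized again these counts were 673 and 616, and with each array centred on its median they were 1226 and 402, so that higher genes made up 61.7% of these genes as deposited, 52.2% after quantile normalization and 75.3% after centring. Over all genes the median difference was 0.02, with 59.6% of genes above 0 and 40.4% below. After quantile normalization 8420 of the 15780 genes lay above 0 and 7360 below. For 10 genes (0.0634%) every early-remission kidney lay above every 30-week kidney, and for 11 genes (0.0697%) every early-remission kidney lay below. The genes named next were those with the lowest p among genes that differed by at least 0.5, those with the widest gap between the groups, and the ends of each gene list, while further list members were chosen for their known role after their values were seen. None of them passed the adjusted threshold with all 15 kidneys.

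Hpd (Entrez 15445), an enzyme of tyrosine breakdown, ranged from 10.24 to 11.46 at 30 weeks (median 10.73, n = 7) and from 11.34 to 12.31 in early remission (median 11.67, n = 8). Its difference of 0.96 ± 0.18 was close to a doubling (limma adjusted p = 0.127, exact permutation p = 0.000311). All 8 early-remission kidneys lay above the 30-week mean, and only 30-week replicate 7 overlapped with them, at 11.46 against 11.34 in early-remission replicate 8. Cyp2d12 (Entrez 380997), a cytochrome P450, ranged from 6.66 to 7.82 at 30 weeks (median 7.37, n = 7) and from 7.78 to 8.64 in early remission (median 8.03, n = 8), a difference of 0.86 ± 0.18 (limma adjusted p = 0.141, exact permutation p = 0.000311). Its groups overlapped through 30-week replicate 4 alone. Slc13a3 (Entrez 114644), chosen after its values were seen, which carries dicarboxylates such as succinate into tubule cells, had a median of 11.65 at 30 weeks and 12.16 in early remission. In 7 early-remission kidneys it stood between 12.13 and 12.49, above every 30-week kidney, and in replicate 8 it was within the 30-week range at 11.73. The difference was 0.48 ± 0.11 (limma adjusted p = 0.167, exact permutation p = 0.00249). Wfdc15b (Entrez 192201), which encodes a secreted protein of the whey acidic protein family, was also chosen after its values were seen, for the second lowest p of all genes, and ranged from 12.13 to 12.67 at 30 weeks (median 12.31, n = 7) and from 12.59 to 12.91 in early remission (median 12.77, n = 8). The difference was 0.45 ± 0.08 (limma adjusted p = 0.127, exact permutation p = 0.000777), and 30-week replicate 2 was the only 30-week kidney within the early-remission range.

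Aldh1a1 (Entrez 11668), which makes retinoic acid from retinal, was separated between the groups and ranged from 10.25 to 10.47 at 30 weeks (median 10.47, n = 7) and from 10.62 to 11.72 in early remission (median 10.78, n = 8). The 7 kidneys at 30 weeks lay within 0.22 of each other, whereas early-remission replicates 2 and 8 stood well above the other 6. The difference was 0.55 ± 0.14 (limma adjusted p = 0.239, exact permutation p = 0.000466). Its close relative Aldh1a7 (Entrez 26358) differed by 0.69 ± 0.26, with early-remission replicate 8 at 9.58 and replicate 2 at 8.64, and a shared signal between probe sets of these related genes was not tested. Cdkn1c (Entrez 12577), an inhibitor of the cell cycle that marks podocytes in the adult kidney, ranged from 9.22 to 10.26 at 30 weeks (median 9.84, n = 7) and from 9.95 to 10.72 in early remission (median 10.33, n = 8), a difference of 0.55 ± 0.14 (limma adjusted p = 0.231, exact permutation p = 0.00295). The other 19 podocyte genes measured differed by between -0.17 (Col4a3) and 0.21 (nephrin, Nphs1). Abca13 (Entrez 268379), a transporter of the ABC family, ranged from 10.26 to 10.85 at 30 weeks (median 10.53, n = 7) and from 10.53 to 11.29 in early remission (median 11.15, n = 8), with 7 early-remission kidneys at or above 10.94 and replicate 8 apart at 10.53. Its difference was 0.51 ± 0.11 (limma adjusted p = 0.152, exact permutation p = 0.00218). Further genes of this direction were Nat8 (0.57), an acetyltransferase that completes mercapturic acids, Inmt (0.70), which methylates small amines, and Insig1 (0.56), which restrains sterol synthesis. For Inmt the difference was 0.39 without 30-week replicate 2 and early-remission replicate 8, whose Inmt value of 10.88 was the highest.

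**Figure D1:**
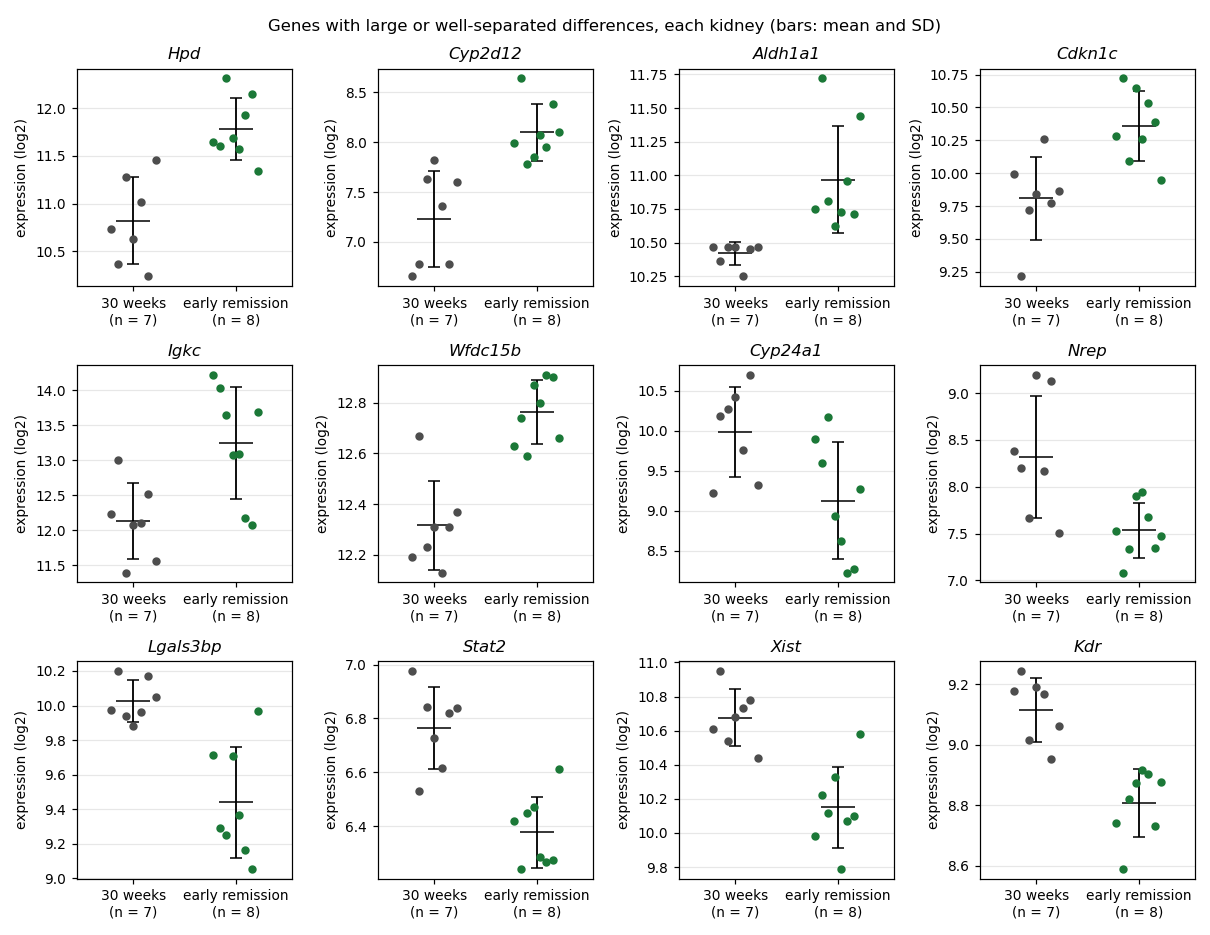
Expression (log2, vertical axes) of 12 genes in each kidney, 7 at 30 weeks (grey) and 8 in early remission (green), with the mean and SD of each group as bars. Aldh1a1 and Kdr do not overlap between the groups, while Igkc and Cyp24a1 spread widely in early remission, from 12.08 to 14.22 and from 8.23 to 10.17.

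Immunoglobulin transcripts gave the largest difference in this direction. Igkc (Entrez 16071), the constant region of the kappa light chain, ranged from 11.40 to 13.01 at 30 weeks (median 12.10, n = 7) and from 12.08 to 14.22 in early remission (median 13.37, n = 8). The difference was 1.12 ± 0.32 (limma adjusted p = 0.265, exact permutation p = 0.00995), with 6 early-remission kidneys above the highest 30-week kidney and replicates 6 and 7 within the 30-week range. Jchain, which joins IgA and IgM into polymers, differed by 0.75 ± 0.36, and Igha, the heavy chain of IgA, by 0.56 ± 0.26. Ighm, Ighg1 and Ighg2c, the heavy chains of IgM and of 2 IgG classes, differed by 0.07, 0.07 and 0.04, and the lambda chain genes Iglc1 and Iglv1 by -0.42 and -0.34. Of 17 measured genes of the immunoglobulin and plasma cell list, 7 lay above 0 and 10 below, against 59.6% and 40.4% of all genes. The median was -0.0260, but without 30-week replicate 2 the counts were 14 and 3 and the median 0.0629. The plasma cell genes Tnfrsf17, Xbp1 and Mzb1 differed by -0.03, -0.03 and -0.16. In whole kidney, fewer or more cells of a type cannot be told apart from less or more RNA per cell. Igkc differed by 0.76 among kidneys whose names hold BG and by 1.27 without 30-week replicate 2, which had the highest Igha value of its group, at 12.79.

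Among the genes with lower values in early remission, Col4a2 (Entrez 12827), a collagen chain of basement membranes, had the lowest p of all genes and was named for it after its values were seen. Col4a2 ranged from 9.46 to 9.85 at 30 weeks (median 9.63, n = 7) and from 9.06 to 9.50 in early remission (median 9.19, n = 8). The difference was -0.43 ± 0.07 (limma adjusted p = 0.127, exact permutation p = 0.000466), and only early-remission replicate 8 reached the 30-week range. Lgals3bp (Entrez 19039), a secreted glycoprotein that interferons induce, ranged from 9.88 to 10.20 at 30 weeks (median 9.97, n = 7) and from 9.05 to 9.97 in early remission (median 9.33, n = 8). It differed by -0.59 ± 0.12 (limma adjusted p = 0.127, exact permutation p = 0.00186), and again early-remission replicate 8 was the only kidney that overlapped. Xist (Entrez 213742), the RNA that coats the inactive X chromosome of females, ranged from 10.44 to 10.95 at 30 weeks (median 10.68, n = 7) and from 9.79 to 10.58 in early remission (median 10.11, n = 8), a difference of -0.53 ± 0.10 (limma adjusted p = 0.127, exact permutation p = 0.000777). The Y-linked genes Uty and Eif2s3y stayed at or below 4.36 and 3.91 in all 15 kidneys. Ptpn22 (Entrez 19260), a phosphatase of lymphocytes, lay between 6.44 and 6.70 in 7 early-remission kidneys and at 7.57 in replicate 8, against 6.99 to 7.51 at 30 weeks. The difference was -0.54 ± 0.15 with all kidneys and -0.66 without replicate 8 (limma adjusted p = 0.256, exact permutation p = 0.00808 with all kidneys).

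Further genes of this direction met the rule on a difference of at least 0.5. Cyp24a1 (Entrez 13081), which breaks down active vitamin D, ranged from 9.22 to 10.70 at 30 weeks (median 10.19, n = 7) and from 8.23 to 10.17 in early remission (median 9.10, n = 8), a difference of -0.86 ± 0.30 (limma adjusted p = 0.41, exact permutation p = 0.0288). Early-remission replicates 4 to 7 lay below every 30-week kidney, and the other 4 within the 30-week range. Cyp27b1, which makes active vitamin D, differed by -0.01 and the vitamin D receptor Vdr by -0.04. Nrep (Entrez 27528) ranged from 7.50 to 9.20 at 30 weeks (median 8.20, n = 7) and from 7.08 to 7.95 in early remission (median 7.50, n = 8), with 30-week replicates 4 and 6 above 9 and the difference at -0.78 ± 0.23 (limma adjusted p = 0.289, exact permutation p = 0.00715). Fn1 (Entrez 14268), which encodes fibronectin, differed by -0.52 ± 0.16 (limma adjusted p = 0.346, exact permutation p = 0.0126) and Havcr1 (Entrez 171283), the tubular injury molecule KIM-1, by -0.54 ± 0.17 (limma adjusted p = 0.346, exact permutation p = 0.0163). Apoc1, an apolipoprotein, differed by -0.70 ± 0.20, and Cpe, which trims peptide hormones in endocrine cells, by -0.67 ± 0.22. With the adrenal cortex level of each kidney as a covariate, these differences were -0.49 for Apoc1 and -0.43 for Cpe. Cybb, the heavy chain of the phagocyte oxidase, differed by -0.57 ± 0.19, with 30-week replicate 2 the highest of all kidneys at 8.48.

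Of the genes whose groups did not overlap, Kdr (Entrez 16542), a receptor of vascular endothelial growth factor on endothelium, ranged from 8.95 to 9.24 at 30 weeks (median 9.17, n = 7) and from 8.59 to 8.92 in early remission (median 8.85, n = 8). The difference was -0.31 ± 0.06 (limma adjusted p = 0.127, unadjusted exact permutation p = 0.000155). Genes picked because their groups do not overlap have a low permutation p for that reason, so it adds no support for them. After adjustment over all genes the exact permutation p of Kdr was 0.194. The 25 endothelial genes measured had a median difference of -0.00218, with Cdh5 at -0.03, Tek at 0.01 and Flt1, the other receptor of this growth factor, at 0.08. Pecam1 differed by -0.15 and Vcam1, an adhesion molecule of inflamed endothelium, by -0.31. Tor3a, a torsin of the endoplasmic reticulum, ranged from 6.54 to 6.73 at 30 weeks (median 6.58, n = 7) and from 6.13 to 6.46 in early remission (median 6.32, n = 8), a difference of -0.30 ± 0.05 (limma adjusted p = 0.127, exact permutation p = 0.000311). Hacd1, which takes part in building very long fatty acids, differed by -0.44 ± 0.09, with early-remission replicate 8 the lowest at 6.88. Of the other 8 separated genes with lower values, 7 were named for their gap. They were Sema4c (-0.25), a semaphorin, Uimc1 (-0.20), a ubiquitin-binding protein of DNA repair, Paxbp1 (-0.20), Hltf (-0.18), a DNA helicase, Exosc8 (-0.17), a subunit of the RNA exosome, Phf10 (-0.14), a subunit of a chromatin remodelling complex, and Zfp606 (-0.08). The last, Slc35f5 (-0.28), was added after its values were seen.

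After Aldh1a1, the separated gene with higher values and the widest gap was Akr7a5 (Entrez 110198), an aldehyde reductase, which ranged from 10.88 to 11.17 at 30 weeks (median 11.16, n = 7) and from 11.28 to 11.55 in early remission (median 11.38, n = 8). It differed by 0.27 ± 0.05 (limma adjusted p = 0.137, exact permutation p = 0.000155). Gm16418 (Entrez 100040287), a predicted gene, ranged from 11.45 to 11.83 at 30 weeks (median 11.69, n = 7) and from 11.90 to 12.29 in early remission (median 11.98, n = 8), a difference of 0.37 ± 0.07 (limma adjusted p = 0.127, exact permutation p = 0.000155). Atp5d, the delta subunit of ATP synthase, differed by 0.21 ± 0.05. Tgm4 (0.20), a transglutaminase, D830046C22Rik (0.18), 1700071K01Rik (0.18), Ints5 (0.14), a subunit of the integrator complex, Mkx (0.11), a homeobox factor, and Mip (0.06), a water channel of the lens, differed by 0.20 or less. Mkx and Mip, with means at or below 4.58 in both groups, were among the dimmest genes of the table.

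Genes of oxidative phosphorylation, the subunits of the respiratory chain and of ATP synthase in the inner mitochondrial membrane, had higher values in early remission, by an amount that shrank under another scaling. Of 64 measured (74 listed), 64 had a difference above 0 and 0 below, against 59.6% and 40.4% of all genes, and 32 had an unadjusted p under 0.05, against 5.42% of all genes. None was past the adjusted threshold. Their median difference was 0.140, with a range from 0.0220 for Uqcrfs1 to 0.278 for Ndufb10. Ndufb10 (Entrez 68342), a subunit of complex I, ranged from 11.49 to 11.93 at 30 weeks (median 11.72, n = 7) and from 11.73 to 12.26 in early remission (median 12.03, n = 8), and differed by 0.28 ± 0.09 (limma adjusted p = 0.348, exact permutation p = 0.0127). Ndufs7, the complex I subunit that holds its last iron-sulfur cluster, differed by 0.24 ± 0.06, Atp5pb of ATP synthase by 0.24 ± 0.06, Cox5b of cytochrome c oxidase by 0.23 ± 0.08 and Uqcrh of complex III by 0.20 ± 0.06. The succinate dehydrogenase subunits, which belong to the citric acid cycle as well, were at 0.12 (Sdha), 0.06 (Sdhb), 0.08 (Sdhc) and 0.03 (Sdhd).

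The mean of the 64 genes, centred on the 15 kidneys, ran from -0.159 to -0.0279 at 30 weeks and from -0.115 to 0.205 in early remission. In early remission, 6 kidneys lay above every 30-week kidney, while replicates 2 and 8 lay within the 30-week range. The list median stayed between 0.128 and 0.164 with each kidney left out in turn, and was 0.209 among kidneys whose names hold BG, with 64 of 64 genes above 0. It moved with the scaling, being 0.0580 with 49 of 64 genes above 0 once the arrays were quantile-normalized again. Of all 15780 genes, 8420 lay above 0 in that scaling. These genes are among the most abundant of the kidney. Of the 64, 62 were in the highest decile of genes by level, where the other 1516 genes had a median difference of 0.04 and that of the 62 was 0.14. The share of genes above 0 varied with level, from 46.3% to 74.8% between deciles, and was 68.2% in the highest. After quantile normalization 47.5% of genes in that highest decile lay above 0, and the median of the whole decile was -0.01.

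A motif of nuclear respiratory factor 1, the transcription factor known for driving respiratory chain genes, was searched by its core CGCNTGCGC on both strands of the RefSeq promoter windows (250 bases before to 50 after a gene's start, build GRCm38.p6). It was found in 15 of 54 oxidative phosphorylation genes with a window (27.8%) and in 11.9% of 12585 tested genes with one. Windows on 1 chromosome were left out when stretches to show were chosen. The stretches have the motif in capitals and up to 50 bases to either side. They belong to the 3 remaining genes of the list with the largest differences among those with a match before the start. Their differences were 0.22 for Ndufa11, 0.20 for Ndufa5 and 0.17 for Ndufs6, all subunits of complex I.
Ndufa11, chr17:56717652-56717760, strand +: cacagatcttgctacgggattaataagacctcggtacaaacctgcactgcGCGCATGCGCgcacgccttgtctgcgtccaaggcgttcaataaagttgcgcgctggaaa
Ndufa5, chr6:24527658-24527766, strand -: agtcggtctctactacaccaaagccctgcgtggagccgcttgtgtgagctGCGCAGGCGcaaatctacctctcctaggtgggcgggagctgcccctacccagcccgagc
Ndufs6, chr13:73328483-73328547, strand -: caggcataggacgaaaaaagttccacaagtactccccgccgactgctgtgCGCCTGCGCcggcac
On the other strand the core reads GCGCANGCG, and in Ndufa11 matches on both strands overlap. The Ndufs6 stretch is shorter because its match begins 15 bases before the start.

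Enzymes of amino acid catabolism followed the same direction. Of 50 measured (55 listed), 45 lay above 0 and 5 below, against 59.6% and 40.4% of all genes. Their median level of 10.7 fell in the highest decile, where 68.2% of genes lay above 0. At an unadjusted p under 0.05, 18 were higher and 0 lower, against 5.42% and 3.37% of all genes. The median was 0.161, and 0.105 with 44 above 0 after quantile normalization. The tyrosine pathway was represented by Hpd (0.96), Fah (0.28), Hgd (0.24) and Gstz1 (0.18), which act in 1 chain. Bhmt (Entrez 12116), which remethylates homocysteine with betaine, ranged from 8.43 to 10.24 at 30 weeks (median 9.16, n = 7) and from 8.77 to 10.95 in early remission (median 9.79, n = 8). Its difference of 0.60 ± 0.29 was the next largest of the list (limma adjusted p = 0.58, exact permutation p = 0.096), and the groups overlapped widely. Ftcd of histidine breakdown differed by 0.35 ± 0.11, Haao of tryptophan breakdown by 0.32 ± 0.07 and Dmgdh of choline breakdown by 0.30 ± 0.08. At the other end were Arg2 (-0.32), the mitochondrial arginase, and Gatm (-0.12), which starts creatine synthesis. Without 30-week replicate 2, the kidney with the lowest mean over these genes, 39 of 50 lay above 0 with a median of 0.117.

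Genes that mark the distal nephron segments lay mostly above 0. For the loop of Henle and distal tubule, 21 of 25 measured genes lay above 0 (59.6% of all genes) with 7 at an unadjusted p under 0.05 (5.42% of all genes). Their median was 0.142, and 0.0916 after quantile normalization. Pvalb (0.46), a calcium-binding protein of the distal convoluted tubule, and Ptger3 (0.39), a prostaglandin receptor, were highest, and Umod, which encodes uromodulin, differed by 0.13 ± 0.06. For the collecting duct, 20 of 26 lay above 0 with 6 at an unadjusted p under 0.05 and a median of 0.127, and 0.110 after quantile normalization. Slc4a1 (Entrez 20533), the anion exchanger of acid-secreting intercalated cells and of red blood cells, ranged from 7.88 to 8.95 at 30 weeks (median 8.57, n = 7) and from 8.64 to 9.18 in early remission (median 8.98, n = 8) and differed by 0.48 ± 0.13 (limma adjusted p = 0.256, exact permutation p = 0.00311). The ammonia transporters Rhbg and Rhcg differed by 0.29 and 0.24, and Aqp2, the vasopressin-regulated water channel, by 0.28. In the proximal tubule, 14 of 27 transporters lay above 0 with a median of 0.0581, which was -0.0290 without 30-week replicate 2 and 0.00857 after quantile normalization. At an unadjusted p under 0.05, 7 of these transporters were higher and 1 lower, against 5.42% and 3.37% of all genes. Megalin (Lrp2) and cubilin (Cubn), the receptors that take up filtered protein, differed by 0.03 and 0.04. Ace, angiotensin-converting enzyme of the brush border and of vessels, differed by 0.43 ± 0.14 (limma adjusted p = 0.381, exact permutation p = 0.0152), but by 0.23 among kidneys whose names hold BG. Podocyte genes had a median of 0.0413 with 16 of 20 above 0, and -0.000345 with 10 above 0 without 30-week replicate 2.

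**Figure D2:**
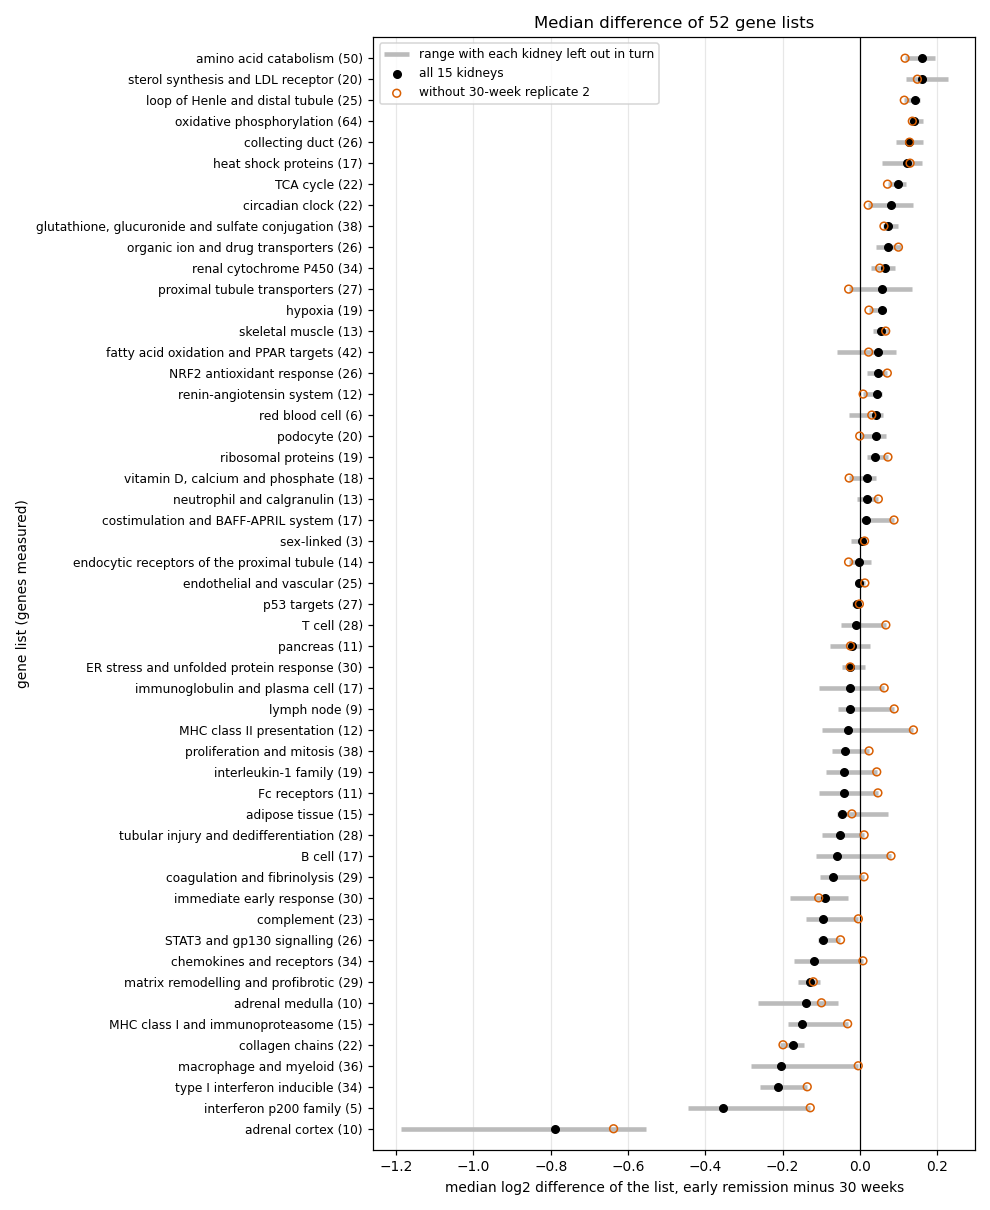
Median log2 difference (horizontal axis, early remission minus 30 weeks) of 52 gene lists, with the number of genes measured in brackets. Black points are all 15 kidneys, open orange points leave out 30-week replicate 2, and grey bars span the medians with each kidney left out in turn. The oxidative phosphorylation and collagen points barely move without 30-week replicate 2, whereas the macrophage point goes from -0.205 to close to 0.

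Genes induced by type I interferon had lower values in early remission. Of 34 measured (41 listed), 32 lay below 0, against 40.4% of all genes, and 15 had an unadjusted p under 0.05, against 3.37% of all genes, with a median of -0.213. None was past the adjusted threshold. Oasl2 (Entrez 23962), of the family that senses double-stranded RNA, ranged from 6.91 to 7.94 at 30 weeks (median 7.36, n = 7) and from 6.43 to 7.30 in early remission (median 6.66, n = 8). It differed by -0.60 ± 0.16 (limma adjusted p = 0.256, exact permutation p = 0.00622), and early-remission replicates 1 and 8 were the highest of their group. Usp18, which removes the ubiquitin-like protein ISG15 from its targets, differed by -0.55 ± 0.18 (limma adjusted p = 0.387, exact permutation p = 0.0186). Stat2 (Entrez 20847), the transcription factor through which the type I interferon receptor acts, ranged from 6.53 to 6.98 at 30 weeks (median 6.82, n = 7) and from 6.24 to 6.61 in early remission (median 6.35, n = 8). The difference was -0.39 ± 0.07 (limma adjusted p = 0.127, exact permutation p = 0.000466), and the overlap came from 30-week replicate 2, the lowest of its group, and early-remission replicate 8. Irf7 and Irf9, further transcription factors of this response, differed by -0.45 and -0.28. Oas1b (0.06) and Oas3 (0.05) were the only members above 0. The mean of the list ran from -0.112 to 0.683 at 30 weeks and from -0.266 to 0.155 in early remission, with 30-week replicate 2 the highest. Without that kidney 28 of 34 genes lay below 0 and the median was -0.136.

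The interferon-stimulated response element, the site that STAT2 and its partners bind, was searched by its core GAAANNGAA on both strands of the same windows. It was found in 12 of 23 genes of the list with a window (52.2%), in 7 of 26 macrophage genes (26.9%) and in 8.46% of all 12585. Stat2 was among the 12. The stretches are from the 3 genes with the largest differences among those with a match before the start, the same chromosome left out. Matches are in capitals, and TTCNNTTTC is the same core read on the other strand. Cxcl10, a chemokine that draws T cells, differed by -0.56 ± 0.24, Ifit1, which binds foreign RNA, by -0.50 ± 0.25, and Gbp3, a guanylate-binding protein, by -0.43 ± 0.20.
Cxcl10, chr5:92349044-92349139, strand -: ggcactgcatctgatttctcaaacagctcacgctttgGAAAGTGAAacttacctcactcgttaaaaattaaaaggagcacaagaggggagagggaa
Ifit1, chr19:34640730-34640838, strand +: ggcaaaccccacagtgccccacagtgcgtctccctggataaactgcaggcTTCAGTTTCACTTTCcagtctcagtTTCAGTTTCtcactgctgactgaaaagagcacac
Gbp3, chr3:142559950-142560043, strand +: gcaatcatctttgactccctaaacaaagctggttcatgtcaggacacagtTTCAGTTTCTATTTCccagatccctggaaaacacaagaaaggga
Without 30-week replicate 2 the differences of these genes were -0.45 (Cxcl10), -0.32 (Ifit1) and -0.28 (Gbp3). The match of Cxcl10 begins 213 bases before the start, Ifit1 holds an overlapping pair and a separate match, and those of Gbp3 overlap.

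Myeloid genes and those of MHC class I presentation also had lower values over all 15 kidneys, but these list medians came close to 0 without 1 kidney. Of 36 macrophage and myeloid genes, 35 lay below 0, against 40.4% of all genes, with a median of -0.205. At an unadjusted p under 0.05 stood 2, Cybb (-0.57) and the fractalkine receptor Cx3cr1 (-0.32), against 3.37% of all genes. The mean of the list was 1.28 in 30-week replicate 2 and between -0.30 and 0.18 in the other 6 kidneys at 30 weeks, against -0.477 to 0.319 in early remission. Without that kidney 19 of 36 lay below 0, against 40.4% of all genes in the same fit, and the median was -0.00415. Adgre1, which encodes a surface marker of macrophages, differed by -0.40 with all kidneys and by -0.22 without it. Among kidneys whose names hold BG, where 30-week replicate 2 was kept, the list median was -0.347. The 15 genes of MHC class I presentation and the immunoproteasome all lay below 0 (median -0.149), against 40.4% of all genes. Without that kidney 10 of 15 did (median -0.0317), against the same share. B2m, the shared light chain of class I molecules, differed by -0.25 ± 0.10. For MHC class II the median of 12 genes was -0.0308 with all kidneys, with 5 above 0, and 0.139 without 30-week replicate 2, with 9 above 0. Of 34 chemokines and receptors 28 lay below 0 (median -0.120), led by Cxcl10 (-0.56) and Cxcl1 (-0.40), which draws neutrophils, and the median was 0.00793 without that kidney. T cell genes had a median of -0.00892 over 28 genes, with 14 above 0, Cd3e at 0.06 and Cd4 at -0.03. Without that kidney 24 lay above 0 and the median was 0.0672. B cell genes had a median of -0.0588 over 17 genes, with 4 above 0 and Ms4a1, which encodes CD20, at -0.12. Without that kidney 14 lay above 0 and the median turned to 0.0806. For the class II, chemokine, T cell and B cell lists the background is the same. Of all genes 40.4% lay below 0, with all kidneys and without that kidney. The T cell and B cell lists had median levels of 5.49 and 5.92. In the deciles of those levels 66.9% and 61.3% of genes lay above 0 with all kidneys. Of the targets of the therapy, Cd40lg was at 0.09, Cd80 at 0.06, Cd28 at -0.05 and Cd86 at -0.18.

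**Figure D3:**
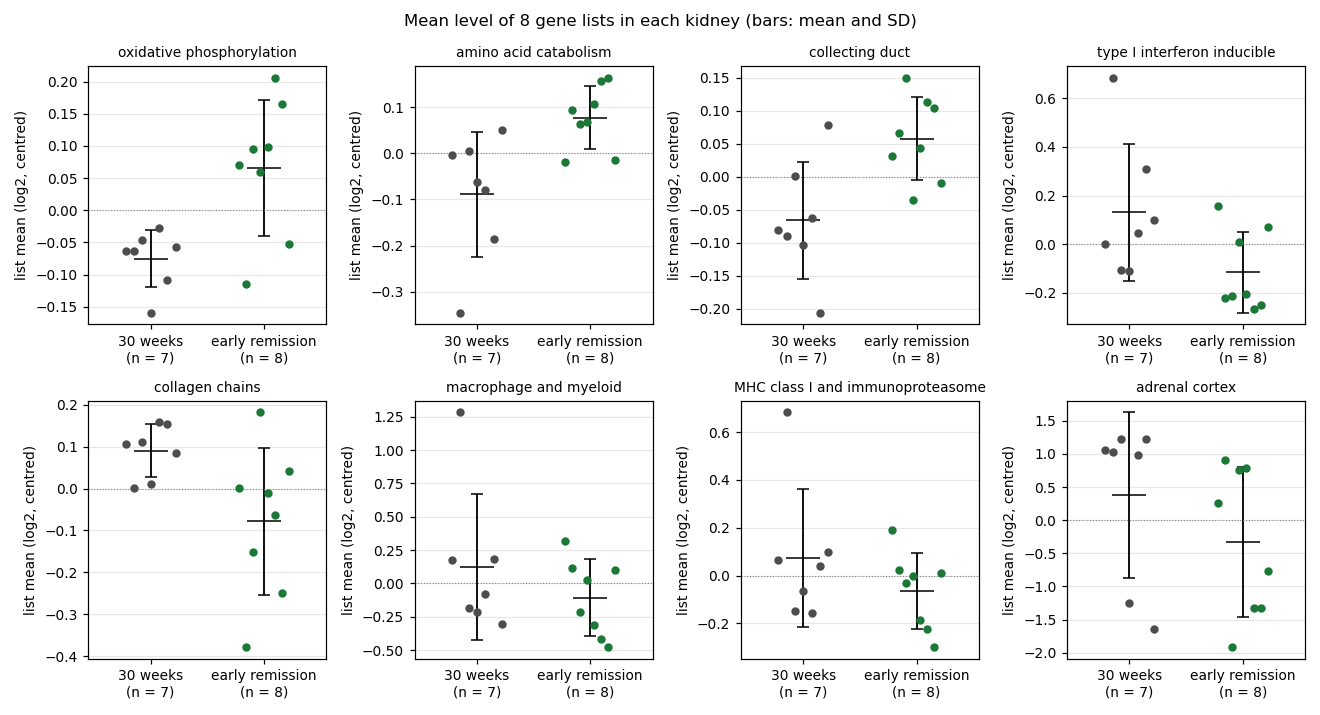
Mean log2 level of 8 gene lists in each kidney (vertical axes, each gene centred on the 15 kidneys), 7 at 30 weeks (grey) and 8 in early remission (green), with the mean and SD of each group as bars. For oxidative phosphorylation 6 early-remission kidneys lie above every 30-week kidney, for macrophage genes 30-week replicate 2 stands alone at 1.28, and adrenal cortex genes split both groups.

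Matrix genes had lower values in early remission, with or without 30-week replicate 2. Of 22 collagen chains, 18 lay below 0 (40.4% of all genes) and 5 had an unadjusted p under 0.05 (3.37% of all genes), with a median of -0.172, which was -0.199 without that kidney and between -0.206 and -0.144 with each kidney left out. After Col4a2 came Col8a1 (-0.34 ± 0.11), a short chain of vessel walls, and the fibrillar chains Col1a2 (-0.30 ± 0.16) and Col5a3 (-0.28 ± 0.14). Col4a1, the partner chain of Col4a2, differed by -0.25 ± 0.08, while Col4a3, Col4a4 and Col4a5, which form the mature glomerular basement membrane, differed by -0.17, 0.02 and -0.17. The mean of the list ran from 0.00109 to 0.158 at 30 weeks and from -0.378 to 0.181 in early remission, where replicate 4 was higher than every 30-week kidney and replicate 2 the lowest. Among 29 genes of matrix remodelling, 23 lay below 0 with 7 at an unadjusted p under 0.05, against the same shares of all genes, and a median of -0.129. Fn1 (-0.52) was followed by Ccn2 (-0.32), a matrix-associated growth factor, and Lox (-0.28), which crosslinks collagen. Pdgfb and Pdgfrb, a ligand and its receptor on pericytes, differed by -0.25 and -0.22. Acta2 and Tgfb1, a marker and a driver of myofibroblasts, were at -0.02 and -0.01.

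Markers of tubular injury were divided. Havcr1 (-0.54), Clu (-0.31), Cldn1 (-0.26) and Krt20 (-0.20) were among 6 of 28 genes at an unadjusted p under 0.05 in the lower direction (3.37% of all genes). Lcn2 differed by -0.13 ± 0.44, Krt8 by 0.19 ± 0.18 and Vim by 0.03 ± 0.19. The list median was -0.0516, and 0.0110 without 30-week replicate 2. Genes of sterol synthesis lay above 0 in 18 of 20 cases (59.6% of all genes), with 4 at an unadjusted p under 0.05 (5.42% of all genes). Their median was 0.160, led by Insig1 (0.56), Msmo1 (0.42) and Srebf1 (0.41). The sterol element TCACNCCAC was in 0 of 17 of their promoter windows and in 1.46% of all. Heat shock proteins had a median of 0.121 over 17 genes, and 0.0579 without early-remission replicate 3, with Hspa1b at 0.44 ± 0.17. For fatty acid oxidation and PPAR targets the median of 42 genes was 0.0466. It turned to -0.0588 without early-remission replicate 2, to -0.00859 after quantile normalization and to -0.0155 among kidneys whose names hold BG. In this list Acaa1a, a thiolase of peroxisomes, differed by 0.35 ± 0.16 and Angptl4 and Pdk4, which fasting induces, by -0.67 ± 0.41 and -0.67 ± 0.35. The 5 genes of the interferon p200 family had a median of -0.354, which was -0.128 without 30-week replicate 2. Of these, Ifi202b, a candidate gene of lupus in NZB mice, differed by -0.48 ± 0.30 with all kidneys and by -0.19 without that kidney, where it stood at 8.11.

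The largest negative differences of the whole table belonged to genes of steroid synthesis in the adrenal cortex. Cyp21a1 (Entrez 13079), which makes corticosteroid precursors, ranged from 5.79 to 10.67 at 30 weeks (median 10.30, n = 7) and from 5.18 to 9.89 in early remission (median 8.03, n = 8). Its difference of -1.33 ± 0.92 was small beside the spread (limma adjusted p = 0.712, exact permutation p = 0.21). The mean of 10 adrenal cortex genes was between 0.98 and 1.22 in 5 of the 30-week kidneys and -1.25 and -1.64 in replicates 4 and 7. In early remission it was between 0.26 and 0.91 in replicates 1, 2, 4 and 5 and between -1.91 and -0.77 in the other 4. Of the 10, 9 lay below 0, against 40.4% of all genes. Their median of -0.788 ran from -1.19 without 30-week replicate 7 to -0.553 without early-remission replicate 3. Chgb and Chga of the adrenal medulla differed by -0.88 and -0.45. With the adrenal cortex mean as a covariate the median difference was 0.134 for oxidative phosphorylation, -0.195 for interferon-inducible genes, -0.164 for collagen chains and -0.102 for macrophage genes. Of the lists for other tissues, that for red blood cells had its highest mean in early-remission replicate 8 (0.61), as did that for pancreas (0.38). Their part in the gene differences was not tested.

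Counts of called genes moved with 30-week replicate 2 and early-remission replicate 8. Without 30-week replicate 2, 6 genes were higher and 6 lower at a limma adjusted p under 0.05, and without early-remission replicate 8 the counts were 4 and 6. With both left out, 63 genes were higher (0.399%) and 40 lower (0.253%). With array weights, which keep every kidney but give less weight to those that fit their group poorly, 78 were higher (0.494%) and 45 lower (0.285%), and 71 genes were shared between these sets of 103 and 123. Early-remission replicate 2 stood further from its group than replicate 8 by the number of genes more than 2-fold away. With it left out in place of replicate 8, an alternative chosen after seeing the data, 19 genes were higher (0.12%) and 10 lower (0.0634%), and with all 3 kidneys left out 131 were higher (0.83%) and 60 lower (0.38%). The kidneys to leave out were chosen with results of these data known, so none of these counts is an independent test. Higher among the 103 were Hpd (0.95, limma adjusted p = 0.0323), C8a of the terminal complement complex (0.71), Abca13 (0.62), Slc13a3 (0.55), Wfdc15b (0.52) and Cdkn1c (0.51). The organic anion transporters Slc22a7 (0.47), Slc22a13 (0.47) and Slco1a6 (0.40), the tryptophan and tyrosine enzymes Kmo (0.28), Aadat (0.35), Kyat3 (0.41) and Hgd (0.32), and the mitochondrial ribosomal proteins Mrps15 (0.33), Mrps16 (0.28), Mrpl11 (0.28) and Mrpl30 (0.26) were also higher. Lower were Lgals3bp (-0.63), Ptpn22 (-0.63), Xist (-0.55), the cholesterol exporter Abca1 (-0.51), Col4a2 (-0.49, limma adjusted p = 0.00551), the GM-CSF receptor chain Csf2ra (-0.47), Stat2 (-0.46, limma adjusted p = 0.00551), Parp12 (-0.41), Lgals9 (-0.40), Kdr (-0.30), Pdgfb (-0.30) and Adar (-0.24), an interferon-inducible editor of RNA. Of the genes in this set, those not named earlier were chosen after their values were seen. Leaving out any other single kidney, early-remission replicate 2 included, gave 0 called genes. Of the 52 lists, 28 kept the sign of their median whichever kidney was left out, and 15 changed it without 30-week replicate 2. Within lists, 61 of 64 oxidative phosphorylation genes, 30 of 34 interferon-inducible genes, 15 of 22 collagen chains and 18 of 36 macrophage genes kept their sign in every such fit. The share of all genes that did so was not counted, so these counts do not set the lists apart from other genes.

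**Figure D4:**
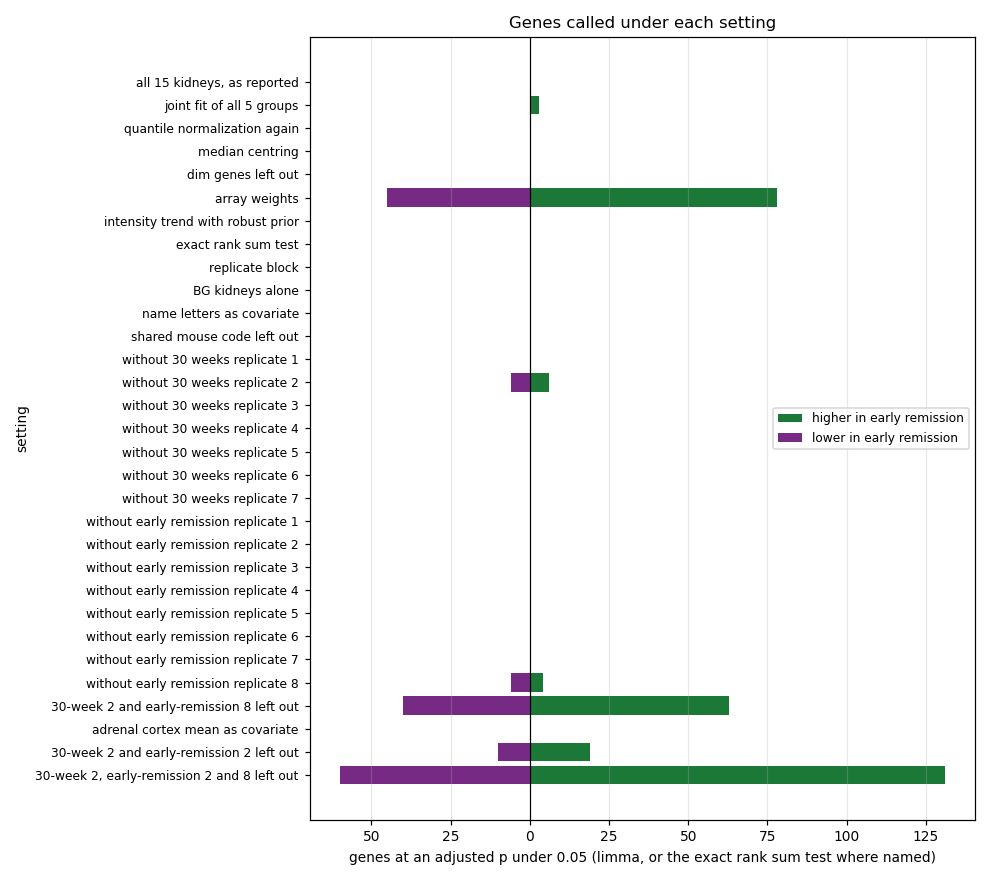
Number of genes at an adjusted p under 0.05 (horizontal axis, higher in early remission to the right in green, lower to the left in purple) under each setting. All 15 kidneys as reported give 0, array weights give 78 and 45, and leaving out 30-week replicate 2 and early-remission replicate 8 gives 63 and 40. Leaving out early-remission replicate 2 as well gives 131 and 60.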

How the data were processed

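Total RNA of whole kidneys was hybridized to Affymetrix arrays, 1 array per kidney. The authors made the deposited log2 values from the scanned arrays with RMA, per the labels, on a Brain Array annotation (version 10) that gives 1 probe set per gene, and normalized and batch-corrected the arrays together. The RMA version and the batches are not given in the sources used here, and how the batch correction bears on the differences was not tested. Scanner values were not used here. Groups and replicate numbers were taken from the sample titles. Of 16539 probe sets, 64 array controls and 695 without a gene name were left out, and 15752 of the remaining 15780 names were matched to RefSeq symbols.

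Early remission (n = 8) was compared with 30 weeks (n = 7) by limma (version 3.58.1, R 4.3.3, lmFit and eBayes, two-sided, Benjamini-Hochberg adjustment over all 15780 genes, threshold 0.05), on the log2 values as deposited. The study's own criterion, which asks for a q-value up to 0.001 and a fold past 1.4 upward or 0.7 downward, was applied to the limma adjusted p, while its SAM test was not run. Single genes were also tested by an exact two-sided permutation of the difference over 6435 splits. Summaries were made with Python 3.11.15, pandas 2.3.3 and numpy 2.4.6, and the fit was tested on simulated data. The labels do not say that each array is a separate mouse, so p-values measure the spread between these samples only.

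Up to 12 genes per direction with the lowest p among differences of at least 0.5, up to 10 per direction with the widest gap between groups, and the 2 members at each end of each list were named. The comparison and the 52 gene lists were chosen with earlier results of these data known, and lists were described by counts and medians without a test. Alternatives were a joint fit of the 5 groups, quantile normalization or median centring, removal of genes under a mean of 6.03 (the lowest 33%), array weights, a trended robust prior, a rank sum test, the replicate number as a block, sample-name letters, removal of the pair with a shared mouse code, each kidney left out, 2 or 3 kidneys left out together and the adrenal cortex mean as a covariate. The motif search covered 4 motifs in 5 pairings with a list, of which the E-box CACGTG was in 5 of 18 clock genes (27.8%) and 10.5% of all. Promoter sequences were those of RefSeq, build GRCm38.p6. Windows on chromosome 18 were left out when the stretches to show were chosen, but were kept in the counts.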

Additional observations from a re-analysis of the deposited data

Results flagged for a closer look

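Each list mean and each named gene was examined in both groups for a kidney far from the rest of its group by Dixon's criterion at 95%, which chance alone meets in about 1 of 20 groups. Of 212 such examinations, 34 found a kidney apart, and 30-week replicate 2 accounted for most of them. Its list means, centred on the 15 kidneys, were high for macrophage and myeloid genes (1.28), the interferon p200 family (1.25), lymph node genes (0.986), MHC class II (0.963), chemokines (0.719), MHC class I (0.682) and T cells (0.641). They were also high for complement (0.538), proliferation (0.526), Fc receptors (0.513), tubular injury (0.43), STAT3 and gp130 signalling (0.428), costimulation (0.402), the interleukin-1 family (0.396) and ribosomal proteins (0.177). They were low for proximal tubule transporters (-0.508), podocyte genes (-0.367) and vitamin D, calcium and phosphate genes (-0.331). In the same kidney Igha stood at 12.8, Ifi202b at 8.11, C8a at 9.83 and Exosc8 at 8.4.

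Early-remission replicate 2 stood apart in fatty acid oxidation and PPAR targets (0.743), in loop of Henle and distal tubule genes (-0.205) and in Mkx (4.57). Early-remission replicate 8 stood apart in red blood cell (0.614) and pancreas genes (0.376), and in Abca13 (10.5), Ptpn22 (7.57) and Hacd1 (6.88). The remaining kidneys apart were 30-week replicate 6 in Akr7a5 (10.9), 30-week replicate 5 in Phf10 (9.42), early-remission replicate 6 in D830046C22Rik (5.67) and early-remission replicate 1 in Zfp606 (5.32).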

How the results depend on the processing

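The 0 calls in either direction stood at 0 under quantile normalization, median centring, the filter on dim genes, the trended robust prior, the rank sum test, both treatments of the sample-name letters, the adrenal covariate and the removal of the pair that shares a mouse code. The 2 treatments of the letters, BG kidneys alone and the letters as a covariate, gave the same differences, because all 30-week kidneys hold BG. Calls appeared in the joint fit of 5 groups (3 higher, 0 lower), with array weights (78 higher, 45 lower) and without 30-week replicate 2 and early-remission replicate 8 (63 higher, 40 lower). In alternatives chosen after seeing the data, leaving out 30-week replicate 2 and early-remission replicate 2 gave 19 higher and 10 lower, and leaving out all 3 kidneys gave 131 and 60. With each kidney left out in turn, the counts ran from 0 to 6 higher and from 0 to 6 lower, with 6 and 6 without 30-week replicate 2 and 4 and 6 without early-remission replicate 8. The cause was not tested. With the replicate number as a block, on 14 kidneys without early-remission replicate 8, the counts were 0 and 0, and before adjustment 863 genes were higher and 591 lower. Kidneys of the same number deviated from their group means with correlations of -0.093 to 0.344, and 1 of 7 correlated best with its own number, so the numbers do not pair the kidneys.

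The split before adjustment was 855 higher and 531 lower as deposited, 673 and 616 after quantile normalization and 1226 and 402 after median centring. Median centring moved the median of all genes from 0.02 to 0.03. Without dim genes, 10572 genes were tested and the split was 585 and 437. All 54 genes followed through the alternatives kept their direction, and 20 of them passed the threshold in at least 1. These genes were chosen for their values in the same data, so this is no independent check. Further genes named here were not among the 54. Of 52 list medians, 2 moved beyond the spread between kidneys, sex-linked genes to -0.53 without dim genes and hypoxia genes to -0.01 without 3 kidneys. The sex-linked value is that of Xist alone, because the filter on dim genes removed Uty and Eif2s3y. The other medians were not all steady. Without 30-week replicate 2 the macrophage median went from -0.205 to -0.00415. Of the 52 medians, 24 changed sign with at least 1 of the single kidneys left out. Unnamed batches, 15 arrays and the lack of an age for the treated mice limit each of these values.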

Other observations

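Enzymes of glutathione, glucuronide and sulfate conjugation, which make drugs and toxins soluble, lay above 0 in 29 of 38 cases (median difference 0.0732), against 59.6% of all genes. After quantile normalization 25 of the 38 did (median 0.0365), against 8420 of all 15780 genes. The same shares are the background of the next lists. Gstk1 of mitochondria and peroxisomes differed by 0.33 ± 0.08 and Gss, which completes glutathione, by 0.28 ± 0.07, whereas Mgst2 differed by -0.51 ± 0.28. Of 26 organic ion and drug transporters 21 lay above 0 (median 0.0730), and 15 after quantile normalization (median 0.0278), with Slc22a22, a prostaglandin transporter of the mouse kidney, at 0.42 ± 0.15 and the export pump Abcc2 at -0.29 ± 0.13. Citric acid cycle genes lay above 0 in 19 of 22 cases (median 0.0982), and in 13 after quantile normalization (median 0.0117). At an unadjusted p under 0.05 stood 1 of the 22 (5.42% of all genes), Dlat of the pyruvate dehydrogenase complex (0.17 ± 0.08). Among NRF2 targets, 17 of 26 lay above 0 (median 0.0466, 0.0196 without early-remission replicate 1, 0.0289 after quantile normalization), with Gclm at 0.21 ± 0.06 and Hmox1 at -0.18 ± 0.12.

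Complement genes were divided (median -0.0950, and -0.00392 without 30-week replicate 2), with C1ra, a protease that starts the classical pathway, at -0.40 ± 0.10 and C2 at -0.21 ± 0.07, but C8a at 0.48 ± 0.17. The fibrinogen chains Fga, Fgb and Fgg differed by -0.45 ± 0.26, -0.39 ± 0.26 and -0.42 ± 0.24. Of 30 immediate early genes 20 lay below 0, against 40.4% of all genes (median -0.0913). The median was -0.0316 without early-remission replicate 8, -0.182 without early-remission replicate 2 and -0.0391 with the adrenal covariate. The list held Myc at -0.39 ± 0.17 and Dusp6, a phosphatase of the ERK pathway, at -0.35 ± 0.14. Genes of the circadian clock spread widely between kidneys of a group. Dbp differed by 0.22 ± 0.60, Arntl by -0.13 ± 0.41 and Per2 by 0.33 ± 0.33. Tnfsf13b, which encodes the B cell survival factor BAFF, differed by -0.24 ± 0.13, and Cd274, which encodes PD-L1, by -0.26 ± 0.13.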
